A study of Homo sapiens with 2 samples.

Results

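The hypoxia-inducible target genes of the transcription factor HIF were examined in RBMS1-depleted and control MDA-MB-231 cells, a human triple-negative breast cancer line. The set held 10 genes, CA9, VEGFA, ADM, NDRG1, BNIP3, ANKRD37, EGLN3, P4HA1, ANGPTL4 and HIF1A itself, of 49670 genes listed in the files. Members were found by gene symbol and not by a measured level, although the list was drawn up with earlier results of these data known. The question put to them was whether oxygen supply or the state of the medium could differ between the 2 cultures. RNA-seq was carried out on 1 library of cells with RBMS1 knocked down and 1 library of control cells. According to the study's methods, stable lines were made with lentiviral shRNA in the pLKO.1 plasmid, with the empty plasmid as the negative control, and were kept under puromycin, so both cultures carried a vector and its drug. Both were labelled as grown in serum-containing L15 medium without carbon dioxide. The labels do not say which shRNA sequence was used or whether the lines were clonal, and neither oxygen tension, cell density nor time since the last change of medium is given in the sources used here. Since each group is a single library, replicates could not be compared, no test was run, and all values describe these 2 libraries.

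HIF is a pair of proteins, an alpha subunit such as HIF-1α and the partner ARNT. When oxygen is plentiful, prolyl hydroxylases of the EGLN family modify the alpha subunit, the VHL ubiquitin ligase recognises it, and it is destroyed, so that oxygen controls HIF-1α mainly as a protein and less as an mRNA. When oxygen is scarce the alpha subunit persists, enters the nucleus and binds short DNA elements near genes for glucose uptake, glycolysis, blood vessel growth, pH control and removal of mitochondria. Many of these genes also answer to other signals, including nutrient supply, growth factors and stress. L15 is a medium made for culture in air, with galactose in place of glucose.

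The DNA core that HIF binds is ACGTG or GCGTG, and the promoter windows of members are shown because it is the feature that many HIF targets share. Windows ran from 250 bases before to 50 bases after the start of a gene (RefSeq, GRCh38.p14), and both strands were searched. Of the 10 members, 8 had a window, all but VEGFA and NDRG1, which were not searched. ACGTG stood in the windows of 5 of the 8, against 21.4% of all 35116 promoter windows. GCGTG stood in windows of 3 members, ADM, BNIP3 and HIF1A, against 36.5% of all windows. EGLN3 had neither. A match is a string of letters and not a measured binding site, and elements outside the window were not searched. The 6 places with ACGTG are printed on the strand of the gene, with ACGTG, or CACGT where it reads ACGTG on the other strand, in capitals. The second and the third contain CACGTG, which reads the same on both strands.
CA9, chr9:35673902-35673922, plus strand: ttccaatgCACGTacagcccg
BNIP3, chr10:131982044-131982064, minus strand: cgcgccgcACGTGccacacgc
ANKRD37, chr4:185396672-185396692, plus strand: cgggctccACGTGccagtgtt
ANKRD37, chr4:185396690-185396710, plus strand: gtttgtgtACGTGcggccgtg
P4HA1, chr10:73096940-73096960, minus strand: atcgagctCACGTagcgaggg
ANGPTL4, chr19:8363913-8363933, plus strand: agaagagtCACGTctcccacg
Counted from the start of the gene, the CA9 element begins at position -18, the P4HA1 element at -86 and the ANGPTL4 element at -234. As the values below show, these 5 genes did not go one way. CA9 and ANKRD37 were listed at 0 in both libraries, ANGPTL4 was listed at 0 in knockdown cells only, and BNIP3 and P4HA1 were slightly higher there with overlapping intervals.

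The deposited unit is FPKM, which counts fragments by transcript length and library size. Each transcript has a within-library interval, and the level of a gene is the sum over its transcripts. Intervals quoted for a gene are summed in the same way, and they do not cover differences between cultures. Ratios are log2 values, knockdown over control, with 1 FPKM added to each side, a scale that makes differences of low genes look smaller. A 2-fold difference is 1 or more, or -1 or less, on that scale. Counts cover the 11222 genes whose FPKM averaged 1 or more. RBMS1 was at 3.76 FPKM in knockdown cells and 24.1 FPKM in control cells, in the direction its label gives. Of the cell line's markers, VIM, CD44, CAV1 and AXL were between 112 and 563 FPKM, and ESR1, PGR and CDH1 were below 1 FPKM in both libraries, while GATA3, also fixed as a low marker, was at 2.11 and 1.56 FPKM. PTPRC, CD3E, CD68 and PECAM1, markers of blood and vessel cells, were at or below 0.115 FPKM. The depth in reads is unknown, and median coverage per FPKM was 12.3 in knockdown and 11.3 in control cells. Among the genes tested, 138 were listed at exactly 0 in knockdown cells and 158 in control cells, and MTHFD2, an enzyme of mitochondrial folate metabolism used by most dividing cells, was listed at 0 in both. A 0 can therefore be an estimate that failed, and such genes are given as listed at 0, with no fold. Where a count of 2-fold differences in a gene list includes one, this is said beside it. The shares given for all genes include such genes. Among genes above 0 in both libraries, 1.53% were 2-fold lower and 1.55% higher.

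VEGFA, a secreted factor, was lower in knockdown cells, and ANGPTL4, another, was listed at 0 there, whereas HIF1A was at the same level. BNIP3, P4HA1 and ADM were slightly higher with overlapping intervals. NDRG1 was at 139% of control. Its summed intervals overlapped, while those of its only transcript above 0 lay apart. VEGFA was at 13.8 and 30.002 FPKM, knockdown first, and ANGPTL4 at a listed 0 and 11.5 FPKM. Of the 8 members averaging 1 FPKM or more, 2 were at least 2-fold lower, beside 2.72% of all genes tested, and 0 were at least 2-fold higher, beside 2.91% (either direction, 5.63%). The count of 2 includes ANGPTL4 through its listed 0, and of the 7 members above 0 in both libraries 1 was 2-fold lower, VEGFA, beside 1.53% of such genes. The within-library intervals of the same 2 members lay apart, both lower, and ANGPTL4 is again counted through its listed 0. Of all genes, 11.3% were apart and lower and 13.1% apart and higher (either direction, 24.5%). The median log2 ratio of the 8 members was 0.05 (all genes tested, 0.02). The ratio was above 0 for 5 of them, beside 52.8% of all genes tested, and below 0 for 3, ANGPTL4 included, beside 47.2%. It was 4 and 4 under each of the 3 other scalings of the libraries, where HIF1A passed below 0. With 8 genes and 2 libraries these counts describe the members and nothing beyond them.

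**Figure D1:**
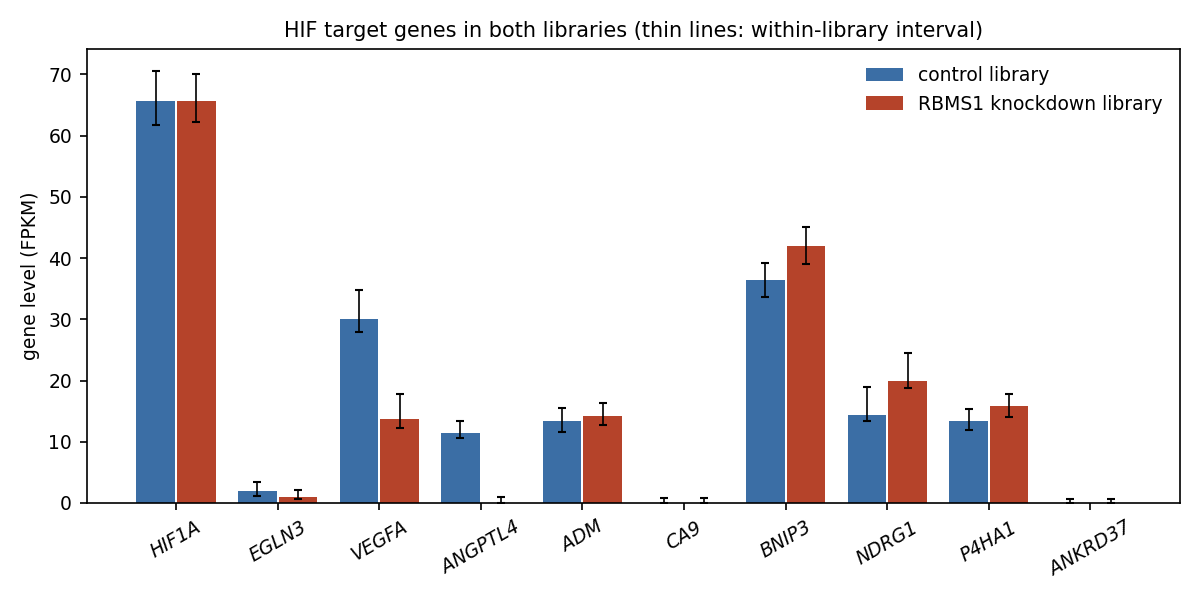
Level of each member in FPKM in the control and the RBMS1 knockdown library, 1 library each, with the within-library interval as a thin line. VEGFA is at 30.002 FPKM in control and 13.8 FPKM in knockdown cells and ANGPTL4 at 11.5 FPKM and a listed 0, HIF1A stands at 65.7 FPKM in both, and CA9 and ANKRD37 are listed at 0 in both.

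HIF1A (ENSG00000100644), which encodes the oxygen-regulated subunit HIF-1α, lies at chr14:61695513-61748259 (GRCh38, plus strand). It was at 65.7 FPKM in both libraries, with intervals of 62.3 to 70.0 FPKM in knockdown and 61.8 to 70.6 FPKM in control cells, the highest level among the members in each. The log2 ratio was 0.00. The makeup of this level differed. In knockdown cells it came from 2 reference transcripts, ENST00000337138 at 52.9 FPKM and ENST00000394997 at 12.8 FPKM, whose proteins of 826 and 827 residues differ in length by 1 residue. The same transcripts were at 30.1 and 11.4 FPKM in control cells, and a transcript assembled from the reads, which starts 127 bases upstream and shares all 14 introns of ENST00000337138, was at 24.3 FPKM. Everything with that chain of introns added up to 52.9 FPKM in knockdown and 54.3 FPKM in control cells. With reference transcripts only, which leaves out the assembled one, the log2 ratio of HIF1A was 0.65, so the equal level rests on counting that transcript. HIF1A-AS2, a gene on the opposite strand that overlaps HIF1A, was represented by ENST00000554254 at 1.53 FPKM in knockdown and 2.51 FPKM in control cells. Whether the libraries kept strand is not stated, so reads of both strands may have been mixed there.

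EGLN3 (ENSG00000129521, chr14:33924231-34462774, minus strand) encodes a prolyl hydroxylase of the EGLN family that HIF itself induces, as it does EGLN1, a feedback arm of the pathway. It was low, at 1.05 FPKM in knockdown cells and 1.91 FPKM in control cells. The log2 ratio was -0.51, and the intervals, 0.572 to 2.19 and 1.07 to 3.47 FPKM, overlapped. The full-length coding transcript ENST00000250457 was at 0.600 FPKM in knockdown and 0.829 FPKM in control cells. ENST00000556785, annotated as a retained intron, was at 0.445 and 0.696 FPKM. A transcript assembled in control cells only, sharing 3 introns with ENST00000250457, was at 0.219 FPKM. At this level the difference was not detectable within the intervals of the libraries.

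VEGFA (ENSG00000112715), the main growth factor for blood vessels and one of the best known HIF targets, lies at chr6:43770184-43786487 (GRCh38, plus strand). It was at 13.8 FPKM in knockdown cells, with an interval of 12.2 to 17.8 FPKM. In control cells it was at 30.002 FPKM, with an interval of 27.9 to 34.8 FPKM. The knockdown library thus held 45.9% of the control level, a log2 ratio of -1.07, and among the 11222 genes VEGFA had rank 273 from the lowest ratio. The level was carried by other annotated transcripts in each library. In control cells they were ENST00000615393 at 15.6 FPKM and ENST00000621747 at 11.8 FPKM. In knockdown cells ENST00000615393 was at 2.21 FPKM and ENST00000621747 was listed at 0, while ENST00000372067 at 5.93 FPKM and ENST00000372077 at 4.51 FPKM were present, both listed at 0 in control cells.

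These transcripts differ in an exon of 132 bases at chr6:43781956-43782087, part of the region that gives the longer VEGF-A forms their hold on heparan sulfate. Coding transcripts with the exon added up to 5.93 FPKM in knockdown and 11.8 FPKM in control cells, or 50.3% of control. Coding transcripts without it added up to 6.72 and 15.6 FPKM, or 43.2% of control. The share without the exon was 53.1% of coding VEGFA in knockdown and 56.9% in control cells. Both splice forms were thus lower, with intervals apart, although other transcripts stood for them in each library. The gene level without assembled transcripts was the same, since no assembled transcript was assigned to VEGFA. With 5 FPKM added in place of 1, the log2 ratio was -0.90, short of a 2-fold difference.

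ANGPTL4 encodes a secreted inhibitor of lipoprotein lipase that hypoxia, fasting signals and TGF-beta are known to induce. ANGPTL4 (ENSG00000167772) lies at chr19:8363289-8374373 (GRCh38, plus strand). The control library had it at 11.5 FPKM, with an interval of 10.5 to 13.4 FPKM, all from ENST00000301455, which encodes 406 residues. In knockdown cells every ANGPTL4 transcript was listed at 0, with an upper bound of 0.921 FPKM summed over them, and no fold is given. The authors' second deposited table, which holds FPKM on a scale of its own for 7236 transcripts, has ENST00000301455 at 2.57 FPKM in knockdown and 18.8 FPKM in control cells, so there the transcript was not at 0 but at 13.7% of control. A log2 ratio computed from these 2 values with 1 FPKM added is -2.47. ENST00000393962 of the same gene was at 0 and 1.65 FPKM in that table. The table holds only transcripts that passed a limit on p, so a listing in it is a selection and not a second sample. It lists 10 transcripts of 4 members. For VEGFA it has ENST00000615393 at 6.64 and 27.5 FPKM, ENST00000621747 at 0.329 and 16.4 FPKM, ENST00000372067 at 6.94 and 0.0483 FPKM and ENST00000617771 at 0 and 0.301 FPKM, knockdown first. For P4HA1 it has ENST00000307116 at 9.03 and 3.87 FPKM, ENST00000394890 at 0.764 and 2.41 FPKM and ENST00000440381 at 2.46 and 0 FPKM. For HIF1A it has ENST00000323441 at 3.66 and 1.94 FPKM. A reference transcript of ELAVL1 on the minus strand, ENST00000351593, is drawn across the whole of ANGPTL4, from 7962275 to 8445041 in both files, and was at 39.5 FPKM in knockdown and 36.5 FPKM in control cells. Its part in the listed 0 was not tested.

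ADM (ENSG00000148926, chr11:10304680-10307397, plus strand) encodes adrenomedullin, a peptide that widens blood vessels. It was at 14.3 FPKM in knockdown cells (12.8 to 16.3 FPKM) and at 13.3 FPKM in control cells (11.7 to 15.5 FPKM), with a log2 ratio of 0.10 and overlapping intervals. The 4-exon transcript ENST00000278175 was at 10.7 and 8.77 FPKM, and the 3-exon transcript ENST00000534464 was at 3.55 and 4.54 FPKM. ADM, also secreted, thus did not share the lower level of VEGFA.

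CA9 (ENSG00000107159, chr9:35673856-35681159, plus strand), the membrane carbonic anhydrase that buffers acid outside hypoxic tumour cells and is among the most strictly oxygen-controlled HIF targets, was listed at 0 in both libraries. So was ANKRD37 (ENSG00000186352, chr4:185396021-185400628, plus strand), a small ankyrin-repeat protein gene induced by HIF. The upper bounds summed over transcripts were 0.743 and 0.782 FPKM for CA9 and 0.611 and 0.659 FPKM for ANKRD37, knockdown first. No single-exon fragment left out of the gene levels, on the same strand or without a strand, lay inside either gene. UFSP2 on the opposite strand overlaps the end of ANKRD37, with ENST00000264689 at 5.37 FPKM in knockdown and 5.74 FPKM in control cells. Neither gene showed a difference that these files could measure, and a 0 here is not shown to be an absence.

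BNIP3 (ENSG00000176171), a mitochondrial protein that marks mitochondria for removal, lies at chr10:131966455-131982013 (GRCh38, minus strand). It was at 42.0 FPKM in knockdown cells (39.0 to 45.0 FPKM) and at 36.4 FPKM in control cells (33.6 to 39.2 FPKM), with a log2 ratio of 0.20. The intervals met only at their ends. In each library the level was divided between ENST00000368636, at 22.4 FPKM in knockdown and 17.997 FPKM in control cells, and an assembled transcript of 5 exons whose 4 introns are all shared with it, at 19.6 and 18.4 FPKM. The assembled transcript ended at position 131967740 in both libraries. The paralog BNIP3L, a related mitochondrial receptor and not a member, was at 30.6 and 20.8 FPKM (log2 ratio 0.54) with intervals apart. Most of it came from ENST00000620910, which GENCODE 29 does not hold, and without such transcripts BNIP3L would be listed at 0 in control cells. Its ratio was -0.12 with the highest reference transcript only.

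NDRG1 (ENSG00000104419), a stress-induced gene linked to growth arrest and to iron and oxygen shortage, lies at chr8:133237171-133302022 (GRCh38, minus strand). It was at 19.9 FPKM in knockdown cells and at 14.4 FPKM in control cells (log2 ratio 0.44), the highest ratio among the members. All of it came from ENST00000323851, whose own intervals lay apart at 18.8 to 21.1 and 13.5 to 15.3 FPKM. The intervals summed over all NDRG1 transcripts, 18.8 to 24.6 and 13.5 to 19.0 FPKM, overlapped. Over all genes tested, the 5th to 95th percentile of log2 ratios ran from -0.66 to 0.68, and NDRG1 had rank 10061 of 11222 from the lowest ratio.

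P4HA1 (ENSG00000122884, chr10:73007217-73096974, minus strand) encodes the catalytic subunit of the collagen prolyl hydroxylase, an enzyme that itself needs oxygen. It was at 15.8 FPKM in knockdown cells (14.1 to 17.8 FPKM) and at 13.5 FPKM in control cells (11.9 to 15.3 FPKM), with a log2 ratio of 0.21. P4HA1 has a pair of alternative exons of 71 bases each. Transcripts with the exon at chr10:73043887-73043957 added up to 10.8 FPKM in knockdown and 9.62 FPKM in control cells. Those with the exon at chr10:73044981-73045051 added up to 4.99 and 3.84 FPKM, a share of 31.6% and 28.5% of coding P4HA1. As with VEGFA, some single transcripts differed more than the gene. ENST00000373008, the highest, was at 8.58 and 9.62 FPKM. ENST00000307116 was at 4.99 and 2.28 FPKM, ENST00000440381 at 2.20 FPKM in knockdown cells and listed at 0 in control cells, and ENST00000394890 the other way, listed at 0 and at 1.56 FPKM. The alternative that follows the highest reference transcript only gave P4HA1 a log2 ratio of -0.15.

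Ordered by level, the members ran from HIF1A and BNIP3 at the top to EGLN3 and the genes listed at 0 at the bottom in both libraries. In control cells VEGFA followed BNIP3 with overlapping intervals, and NDRG1, P4HA1, ADM and ANGPTL4 came next, each overlapping the one after it. In knockdown cells NDRG1 took the place after BNIP3, and P4HA1, ADM and VEGFA, between 13.8 and 15.8 FPKM, could not be separated. Leaving out VEGFA and ANGPTL4, the members above 0 stood in the same order in both libraries.

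The machinery that controls HIF runs from the partner subunits to the VHL ligase. Of 15 genes, 14 averaged 1 FPKM or more, and 0 of these were 2-fold lower or higher, a count near the background of 2.72% and 2.91%. Their median log2 ratio was 0.10, and 11 of the 14 were above 0, beside 52.8% of all genes. It was 10 of 14 under each of the 3 other scalings, 8 of 13 without assembled transcripts and 9 of 13 with the highest reference transcript only. The share of 52.8% belongs to the reported setting. Under the 3 other scalings the median log2 ratio of all genes was slightly below 0, between -0.009 and -0.004. Intervals lay apart for 1 that was lower and 2 that were higher, beside 11.3% and 13.1% of all genes. The lower one was ARNT, the common partner of the alpha subunits, at 5.25 FPKM in knockdown and 7.55 FPKM in control cells (log2 ratio -0.45). With the highest ARNT reference transcript only, the ratio was 0.19. The higher ones were RBX1, the ring finger subunit of the VHL ligase, with a log2 ratio of 0.30, and CITED2, a HIF-induced protein that competes with HIF for p300, at 42.3 and 33.2 FPKM with a log2 ratio of 0.34. CITED2 passed 2-fold when assembled transcripts were left out, at 1.06, and at 1.33 with its highest reference transcript only.

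Oxygen sensors and alpha subunits had small differences. EPAS1, which encodes HIF-2α, was at 4.81 FPKM in knockdown and 4.67 FPKM in control cells. The prolyl hydroxylase EGLN1 was at 13.7 and 12.7 FPKM, and EGLN2 was at 17.6 and 17.5 FPKM. HIF1AN, the asparaginyl hydroxylase that blocks the HIF activation domain, was at 5.31 and 4.65 FPKM, and VHL was at 14.0 and 12.9 FPKM. All 5 had overlapping intervals and log2 ratios between 0.01 and 0.16. For EGLN1 the ratio was -0.27 without assembled transcripts. HIF3A was listed at 0 in both libraries.

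The other machinery genes overlapped as well. ARNT2 was at -0.09 on the log2 scale, and at 0.33 when assembled transcripts were left out. The scaffold CUL2 of the VHL ligase had -0.06. Its adaptors ELOB and ELOC had 0.09 and 0.27, and the coactivators EP300 and CREBBP had 0.10 and 0.20. EP300 had -0.14 without assembled transcripts.

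Glycolytic HIF targets, the group most often used as a readout of HIF activity in metabolism, lay on both sides of 0. Of 21 genes, 20 averaged 1 FPKM or more. Their median log2 ratio was 0.08, with 1 gene 2-fold higher (background 2.91%) and 0 lower (background 2.72%). With the reported scaling the ratio was above 0 for 13 of the 20 and below 0 for 7, beside 52.8% and 47.2% of all genes. Intervals lay apart for 5 genes that were higher and 2 that were lower, beside 13.1% and 11.3% of all genes. Without assembled transcripts 3 of 20 genes were 2-fold higher, beside 5.21% of all genes under that choice. The gene past 2-fold was SLC2A3, the glucose carrier GLUT3, at 8.34 FPKM in knockdown and 3.67 FPKM in control cells. Its log2 ratio of 1.0004 sits at the limit, and it was 0.97 and 0.98 under 2 of the 3 other scalings and 0.62 with 5 FPKM added. SLC2A1, the carrier GLUT1, was at 136 and 92.8 FPKM (log2 ratio 0.55), and the ratio was -0.68 without assembled transcripts. PFKFB4, which makes a regulator of phosphofructokinase, followed with 0.32 and overlapping intervals.

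At the low end were the aldolase ALDOA with a log2 ratio of -0.25, the lactate carrier SLC16A3 with -0.18 and GAPDH with -0.17. GAPDH had 1.10 without assembled transcripts. LDHA, which turns pyruvate into lactate, was at 602 FPKM in knockdown and 555 FPKM in control cells (log2 ratio 0.12), and the ratio was -0.29 without assembled transcripts. PGK1, a classical HIF target of glycolysis, was at 139 and 146 FPKM (log2 ratio -0.07), and the ratio was 1.94 without assembled transcripts. PDK1, which turns pyruvate away from mitochondria, was listed at 0 in both libraries.

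**Figure D2:**
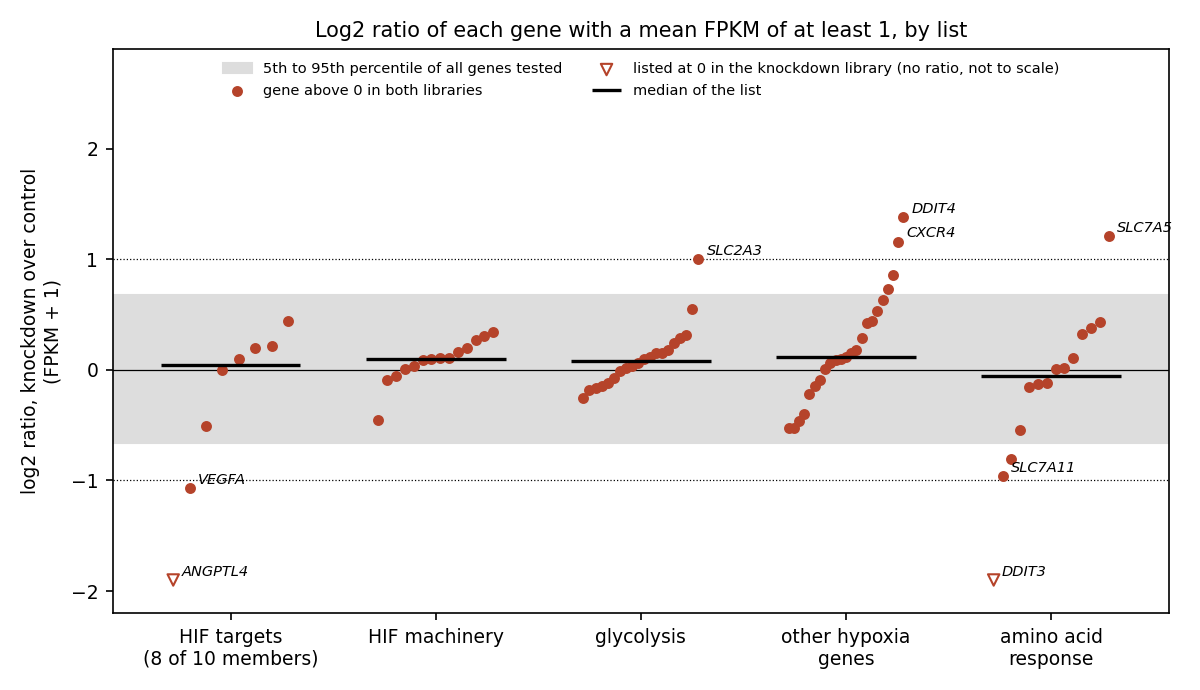
Log2 ratio of (FPKM + 1), knockdown over control, for each gene averaging 1 FPKM or more in 5 lists, with the median of each list as a line, the 5th to 95th percentile of all genes tested in grey (-0.66 to 0.68) and dotted lines at 2-fold. The medians lie between -0.06 and 0.12, VEGFA is the member lowest among those above 0 in both libraries, and ANGPTL4 and DDIT3, listed at 0 in knockdown cells, are drawn as triangles with no ratio.

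A further list of hypoxia-induced genes outside glycolysis spread in both directions. Of 29 genes reported here, 23 averaged 1 FPKM or more, with a median log2 ratio of 0.12, 0 of these 2-fold lower (background 2.72%) and 2 higher (background 2.91%). With the reported scaling the ratio was above 0 for 16 of these 23 and below 0 for 7, beside 52.8% and 47.2% of all genes. Intervals lay apart for 7 that were higher and 3 that were lower, beside 13.1% and 11.3% of all genes. At the low end were the collagen enzymes LOXL2 with a log2 ratio of -0.53, P4HA2 with -0.53 and overlapping intervals, and PLOD2 with -0.47.

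DDIT4, the mTORC1 inhibitor REDD1 that hypoxia, energy stress and glucocorticoids induce, had the highest ratio of that list. It was at 9.93 FPKM in knockdown cells (8.11 to 11.9 FPKM) and at 3.19 FPKM in control cells (2.49 to 4.16 FPKM), with a log2 ratio of 1.38. The ratio of DDIT4 was 0.87 with 5 FPKM added and 0.92 with its highest reference transcript only. Under these choices 0 and 1 genes of the list were 2-fold higher, beside 1.09% and 4.87% of all genes. CXCR4, a chemokine receptor, was at 2.59 and 0.604 FPKM (log2 ratio 1.16), and the ratio was 0.44 with 5 FPKM added. BHLHE40, a transcriptional repressor, was at 9.28 and 4.67 FPKM (log2 ratio 0.86), and the ratio was 0.56 with 5 FPKM added. KDM3A, a histone demethylase induced by HIF, was at 7.27 and 7.21 FPKM, and ERO1A, an oxidase of the endoplasmic reticulum, had a log2 ratio of -0.22 with overlapping intervals. HILPDA, a lipid droplet protein closely tied to HIF, was listed at 0 in both libraries. So DDIT4, CXCR4 and BHLHE40 were higher beside a level KDM3A and a lower VEGFA.

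The state of the medium was looked at through genes that respond to glucose and to amino acids. TXNIP, whose transcription follows glucose-derived sugar phosphates, was at 22.8 FPKM in knockdown cells (21.5 to 24.4 FPKM) and at 38.7 FPKM in control cells (36.2 to 41.5 FPKM), with a log2 ratio of -0.74. It was -0.19 without assembled transcripts. ARRDC4, controlled by the same sugar sensor, was at 0.443 and 0.833 FPKM, too low to be counted, and its intervals overlapped.

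Of 19 genes of the amino acid response, which the factor ATF4 drives when amino acids run short, 14 averaged 1 FPKM or more. Their median log2 ratio was -0.06, and 1 gene was 2-fold lower (background 2.72%) and 1 higher (background 2.91%). The count of 1 lower rests on DDIT3, which encodes the stress factor CHOP, listed at 0 in knockdown cells and at 17.0 FPKM in control cells. All of that control value came from a reference transcript that GENCODE 29 does not hold. With genes above 0 in both libraries only, or without such transcripts, 0 of 13 genes were 2-fold lower, beside 1.53% and 2.80% of all genes. With 0.1 FPKM added 2 of 14 were, beside 3.70% of all genes, and with TPM 2 of 15, beside 4.78%. SLC7A11 then passed 2-fold at -1.05 and -1.04. Next were SLC7A11, the cystine carrier, at 6.85 and 14.3 FPKM with a log2 ratio of -0.96, and CEBPB, a partner of ATF4, with -0.81. TRIB3, a pseudokinase that ATF4 and CHOP induce, was at 2.03 and 3.42 FPKM (log2 ratio -0.55) with intervals apart.

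The opposite end held the amino acid carrier SLC7A5 at 191 FPKM in knockdown and 82.0 FPKM in control cells, its partner SLC3A2 at 69.4 and 51.2 FPKM, and the serine synthesis enzyme PSAT1 at 15.4 and 11.7 FPKM, with log2 ratios of 1.21, 0.43 and 0.38. The ratio of SLC7A5 changed sign, to -0.59, with its highest reference transcript only. ASNS, asparagine synthetase, was at 4.77 and 4.74 FPKM, and ATF4 was at 53.4 and 58.2 FPKM with overlapping intervals. Genes of this response were thus found on both sides.

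The dependence of the members on processing is drawn for the 7 that were above 0 in both libraries. ADM, BNIP3 and NDRG1 stayed above 0 and VEGFA and EGLN3 below 0 under all 8 alternatives that can move a single gene. VEGFA ranged from -2.37, with its highest reference transcript only, to -0.90.

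**Figure D3:**
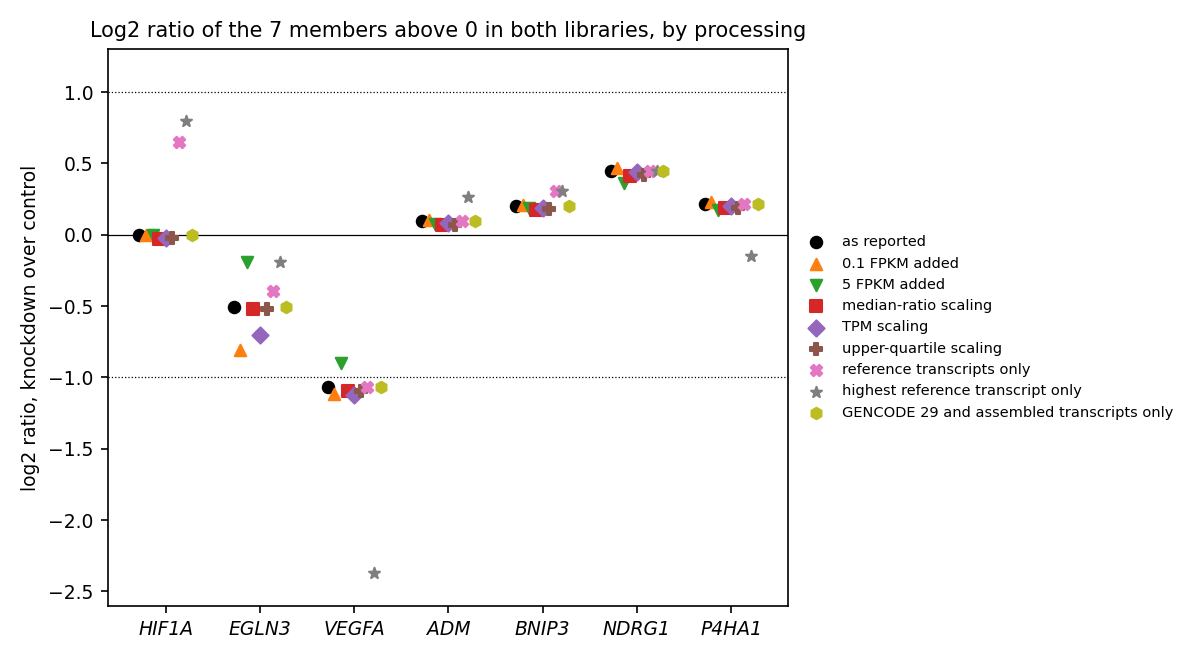
Log2 ratio, knockdown over control, of the 7 members above 0 in both libraries as reported (black) and under 8 alternatives, with dotted lines at 2-fold. VEGFA lies below 0 under each, and HIF1A moves from about 0 to 0.65 and 0.79 when only reference transcripts or only the highest of them are used.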

How the data were processed

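RNA was extracted with Trizol, and sequencing libraries followed the standard Illumina protocol, per the labels. The submitters' processing notes name Bowtie2 2.0.6, TopHat2 2.0.9, Cufflinks 2.1.1 and Cuffdiff 2.1.1, with the genome build and the annotation not given in the sources used here. The authors deposited transcripts with their FPKM, interval and coverage for each library, and a table of their own comparison, of which the FPKM columns alone were used. Its fold changes, p-values and q-values were not used.

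Reference transcripts were joined to GENCODE 29 by identifier, and 98.1% started at its GRCh38 position in each library. Assembled transcripts, and 1606 of the reference transcripts that GENCODE 29 does not hold, were given to the gene on the same strand with the most shared introns (at least 1). The remainder was left out. The transcripts used held 29.3% of all FPKM in the knockdown and 28.4% in the control library. Log2 ratios had 1 FPKM added. Python 3.11.15, numpy 2.4.6 and pandas 2.3.3 were used, and the scripts were tested on simulated data.

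The members and all gene lists were chosen with earlier results of these data known. A gene of the list of other hypoxia targets is not reported here, and the counts and median of that list leave it out and do not describe the whole list. The genes named from a list are the 3 with the lowest and the 3 with the highest log2 ratio, the members, RBMS1, the HIF machinery, TXNIP, ARRDC4 and 10 genes picked as usual readouts of hypoxia or amino acid supply. BNIP3L, ATF4, MTHFD2 and genes overlapping a member lie outside this rule and were named after their values were seen. Transcripts of a member are named at 10% or more of its level in either library. The alternatives were 2 other pseudocounts, 3 scalings, 2 choices of transcripts, 2 filters on low values, leaving out genes at 0, and leaving out reference transcripts absent from GENCODE 29, the last chosen after seeing the data.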

Additional observations from a re-analysis of the deposited data

Results flagged for a closer look

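In HIF1A, a signal outside the gene level was above that of the control library. Single-exon fragments assembled inside the gene, none of which overlaps an annotated HIF1A exon, numbered 4 in the knockdown library and covered 1427 bases with a length-weighted mean of 14.2 FPKM. In the control library 3 fragments covered 998 bases with a mean of 9.33 FPKM. The lowest and highest fragment had 12.1 and 17.1 FPKM in knockdown cells, against 8.59 and 9.96 FPKM in control cells. Each fragment's own interval overlapped that of a fragment in the other library. The fragments were called separately in each library, lie at different positions and were left out of the HIF1A level. Of the other 9 members, none held such a fragment.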

How the results depend on the processing

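The median log2 ratio of the members lay between 5.14e-05 and 0.27 under all 11 alternatives. The number of members at least 2-fold lower was 2, and 1 with 5 FPKM added (VEGFA fell short) or with genes above 0 in both libraries only (ANGPTL4 left out by construction). Of all genes, 2.72% were 2-fold lower as reported, 1.16% with 5 FPKM added and 1.53% among those above 0 in both libraries. The share was 3.70% with 0.1 FPKM added, 4.78% with TPM, 4.83% with reference transcripts only and 4.73% with the highest of them only. No member was 2-fold higher under any of the 11 alternatives. HIF1A had 0.65 with reference transcripts only and 0.79 with the highest of them only. SLC7A5 reversed to -0.59 with its highest reference transcript only. The medians of the 4 other lists stayed within the range set by their within-library intervals. Over all genes, 305 were 2-fold lower and 327 higher. These counts were 130 and 122 with 5 FPKM added, 656 and 654 with TPM, 505 and 545 with reference transcripts only, 478 and 492 with the highest of them only, 139 and 137 among genes averaging 5 FPKM or more, and 167 and 169 above 0 in both libraries. TPM brought more genes over the filter, 13711 in place of 11222. No paired analysis was possible because each group holds a single library, and for the same reason no replicate could be left out. Depth is unknown in reads, and EGLN3, CA9 and ANKRD37 were too low for a difference to be read.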
